A study of Mus musculus with 14 samples.

Results

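The p38 MAP kinase pathway was followed here through 8 genes: 2 kinases that activate p38 (Map2k3 and Map2k6), the 4 p38 kinases (Mapk14, Mapk11, Mapk12 and Mapk13) and 2 kinases that p38 activates (Mapkapk2 and Mapkapk3). They were taken as every non-control probe that carries one of these gene names, which gave 9 probes of 55681 on the array and 8 genes of 32873 tested. Mapk14 has 2 probes and each other gene has 1. All 9 probes were well above background on 14 of 14 arrays, and 0 were saturated.

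RNA came from mouse satellite cells, the stem cells of skeletal muscle, gated on integrin alpha 7 and CD34 with lineage-marked cells (CD31, CD45, CD11b or Sca1) gated out, and was amplified before hybridisation. The groups were C57BL/6 mice aged 2 to 3 months (Young, 3 arrays), 22 to 24 months (Old, 3 arrays) and 29 to 30 months (Geriatric, 2 arrays), and 12-month-old mice of the SAMR1 and SAMP8 strains (3 arrays each). SAMP8 is a strain that ages early and SAMR1 is its resistant control. No group carried a transgene or a treatment, per the labels, and they do not say whether a sample pooled several animals. Samples are labelled as biological replicates, and all mice as male.

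p38 kinases are switched on when a MAP kinase kinase phosphorylates them in answer to stress, cytokines or cell contact, and are switched off again by phosphatases. In muscle stem cells, p38 alpha and beta are known for promoting activation and the myogenic programme, and raised p38 activity has been described in satellite cells of aged mice. That activity is a matter of phosphorylation, so the transcript levels below describe how much message for each kinase was present and not how active the kinase was.

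All 14 satellite cell markers listed, Pax7 among them, were well above background on every array. So were 9 or 10 of 10 leukocyte markers, 7 of 8 mesenchymal and 7 to 9 of 9 endothelial markers, so these counts do not tell the cell type. The leukocyte markers included Itgam, the gene of the gated-out CD11b, with group means of 7.45 to 8.31. Sex-linked transcripts went against the labelled sex. The Y-linked genes Ddx3y, Uty and Kdm5d were detected above background on 0 of 3 Young and 0 of 3 Old arrays and on every Geriatric, SAMR1 and SAMP8 array. A further Y-linked gene, Eif2s3y, was well above background on every array, with means of −1.53 in Young and −1.29 in Old samples and of −0.43, −0.46 and −0.31 in Geriatric, SAMR1 and SAMP8 samples. Xist, the RNA that silences an X chromosome, had mean levels of 5.69 and 5.26 in Young and Old samples and of −7.23, −6.76 and −4.14 in Geriatric, SAMR1 and SAMP8 samples, where 0 of 2, 1 of 3 and 3 of 3 arrays were well above background. Age and these sex-linked transcripts therefore cannot be told apart when Geriatric samples are compared with Young or Old ones. Endothelial markers, as a list of 9 genes, had mean levels from −2.69 to −0.37 on the Young, Old and Geriatric arrays, from 1.55 to 2.80 on the SAMR1 arrays and from −0.27 to 2.44 on the SAMP8 arrays. Between 77.1% and 88.8% of probes were well above background per array. Outlier spots numbered 94 to 255 except on Geriatric 1, which had 969.

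The results turn on 4 probes, whose first 30 of 60 bases are given so that it is clear which transcript stretch was read. Both Mapk14 probes lie on the plus strand of chromosome 17 in build mm9, A_55_P2179348 at chr17:28873965-28874024 and A_55_P2046338 at chr17:28885290-28885349, which is 11325 bases further along the gene's strand. The Map2k6 probe lies at chr11:110374803-110374862 on the plus strand and the Mapk12 probe at chr15:88961267-88961326 on the minus strand. Which exon or untranslated region each one falls in was not analysed here. No base is in capitals, since no motif was sought in the probes.
Mapk14 probe A_55_P2046338: ggtatgccataggatgtcagataataccac
Mapk14 probe A_55_P2179348: agttgaagctcattttaagactcgttggaa
Map2k6 probe A_51_P256093: ccgactgtcaactcaaccgtggctgatcat
Mapk12 probe A_52_P252258: tccaagacccctacccaacatgggactagc

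Mapk14 and Map2k6 are the members that passed the test in a comparison of the design, so the 250 bases before a listed start site of each are shown, from RefSeq on build GRCm38.p6. For Mapk14 2 starts are listed and for Map2k6 3, and the stretches before the others are not given here. Those shown lie at chr17:28691092-28691341 and chr11:110398852-110399101, both on the plus strand. Capitals mark matches, on either strand, to the GC box (GGGCGG), the cyclic AMP response element (TGACGTCA), the AP-1 site (TGANTCA), the E-box (CANNTG) and the CCAAT box (CCAAT), none of which overlap each other here.
Mapk14: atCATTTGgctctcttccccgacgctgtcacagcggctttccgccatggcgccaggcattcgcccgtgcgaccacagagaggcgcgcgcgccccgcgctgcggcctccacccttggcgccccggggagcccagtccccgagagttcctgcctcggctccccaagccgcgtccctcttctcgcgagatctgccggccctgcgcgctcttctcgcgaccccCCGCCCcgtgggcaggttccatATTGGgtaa
Map2k6: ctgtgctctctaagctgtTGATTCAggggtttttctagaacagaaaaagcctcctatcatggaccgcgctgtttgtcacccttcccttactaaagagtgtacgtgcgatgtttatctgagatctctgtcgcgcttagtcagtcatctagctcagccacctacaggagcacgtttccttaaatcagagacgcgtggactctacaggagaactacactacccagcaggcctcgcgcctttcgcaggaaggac
The Mapk14 stretch held 1 E-box, 1 GC box and 1 CCAAT box, which 66.2%, 32.7% and 33.8% of 32851 promoter stretches of this length hold. The Map2k6 stretch held 1 AP-1 site, which 6.75% of them hold. A cyclic AMP response element, held by 1.55% of them, was in neither, so the stretches shown shared none of the motifs searched.

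In the comparison of Geriatric with Old cells, Mapk14 and Map2k6 rose and no other member passed the test, where 19.9% of all genes tested were called. The rise of Mapk14 was read by the brighter of its 2 probes, and the other probe changed by 0.17 (limma, adjusted p = 0.621). In the comparisons of Old with Young, Geriatric with Young and SAMP8 with SAMR1 cells, none of the 8 members passed, where 1.44%, 4.19% and 0.45% of genes were called. Mapk12, the gamma isoform, had the widest range of group means of the 8, with its highest levels in the 2 SAM strains. Levels here and below are log2 signal relative to the 75th percentile of the same array. Changes are differences of these levels with their standard error (SE) from limma, fitted over all genes and all 14 arrays and called at a Benjamini-Hochberg adjusted p under 0.05. Group sizes are 3 arrays except 2 for Geriatric. In such bulk samples, a different number of cells with a message and a different amount of it per cell cannot be told apart.

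**Figure D1:**
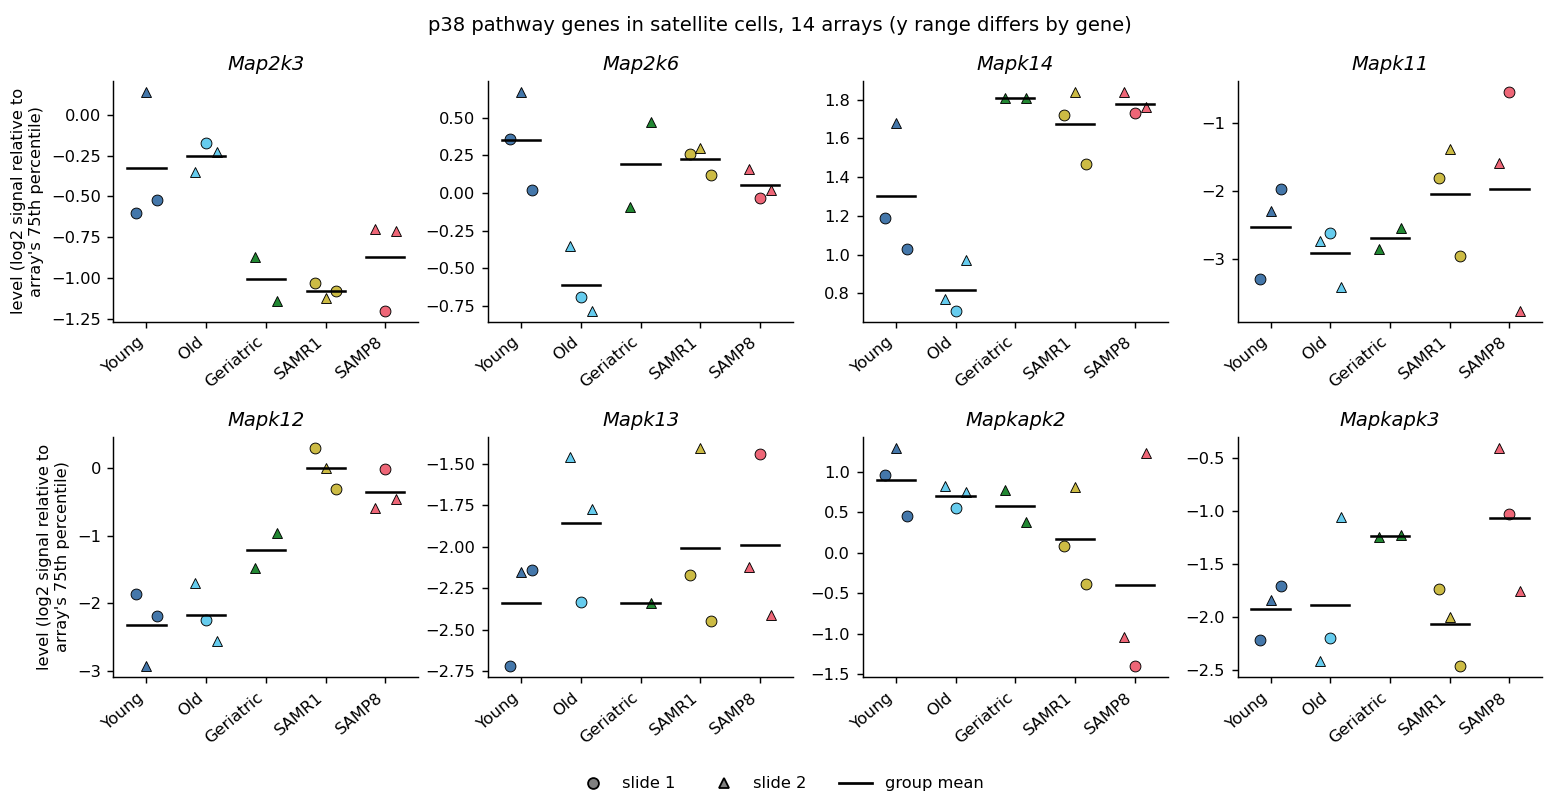
Level of each member (log2 signal relative to the array's 75th percentile, y axis) on each array by group (x axis), with circles for slide 1, triangles for slide 2 and a line at the group mean. The y range differs by gene. Mapk14 and Map2k6 are lowest on the 3 Old arrays, and Mapk12 is highest on the 6 SAMR1 and SAMP8 arrays.

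Of the activating kinases, Map2k6, which phosphorylates p38 kinases, read 0.36, 0.67 and 0.02 on the Young arrays, −0.35, −0.69 and −0.78 on the Old arrays and −0.09 and 0.47 on the Geriatric arrays. It read 0.26, 0.30 and 0.12 in SAMR1 and 0.16, −0.03 and 0.02 in SAMP8. The 3 Old arrays lay below each of the other 11, and the other 4 groups overlapped with their neighbours in level. Map2k6 rose by 0.80 ± 0.25 (SE) from Old to Geriatric cells, a 1.74-fold difference (limma, adjusted p = 0.0425). Without Geriatric 3 the difference was 0.51 (adjusted p = 0.317). The call was also lost without Young 1, Old 2, Old 3, SAMP8 1 or any of the 3 SAMR1 arrays, with adjusted p between 0.0532 and 0.106. From Young to Old cells the difference was −0.95 ± 0.22 (adjusted p = 0.0601). This did not pass the test, although it did with normexp background correction and quantile normalization (−0.92, adjusted p = 0.0189), with arrays centred on the median (−1.17, adjusted p = 0.0428), with slide as a block (−1.02, adjusted p = 0.038) and without Young 3 (−1.12, adjusted p = 0.0496). Geriatric and Young cells differed by −0.16 ± 0.25 (95% interval −0.70 to 0.38, adjusted p = 0.733). Within slide 2, the slide that holds both Geriatric arrays, the Geriatric versus Old difference was 0.75 (adjusted p = 0.229).

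Map2k3, the other p38-activating kinase, was highest in the Old and Young groups. It read −0.60, 0.14 and −0.52 in Young, −0.35, −0.17 and −0.23 in Old, −0.87 and −1.14 in Geriatric, −1.03, −1.12 and −1.08 in SAMR1 and −0.70, −1.20 and −0.71 in SAMP8 samples. All 6 Young and Old arrays lay above all 8 others, the same division of arrays that detection of Ddx3y, Uty and Kdm5d makes. Of the 14 satellite cell markers listed, Des, Myf5 and Spry1 made the same division, and the others, Pax7 among them, overlapped. Des read 6.12 to 6.59 on Young and Old arrays and 5.31 to 5.92 on the others, while Myf5 and Spry1 read lower on Young and Old arrays. What the division of Map2k3 levels goes with was not tested. The Map2k3 difference between Geriatric and Old cells was −0.76 ± 0.25 (limma, adjusted p = 0.0546) and that between Geriatric and Young cells −0.68 ± 0.25 (adjusted p = 0.15), and neither passed. The first of them passed with slide as a block (−0.84, adjusted p = 0.0265) and without Young 2 or SAMP8 2 (adjusted p = 0.0283 and 0.0415). Young and Old cells differed by 0.08 ± 0.23 (95% interval −0.42 to 0.57).

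Mapk14, which encodes p38 alpha, the broadly expressed isoform, read 1.19, 1.68 and 1.03 in Young, 0.77, 0.71 and 0.97 in Old and 1.81 and 1.81 in Geriatric samples by its brighter probe. It read 1.72, 1.84 and 1.47 in SAMR1 and 1.84, 1.73 and 1.76 in SAMP8 samples. The Old arrays were the 3 lowest of the 14, and neither Young nor Old arrays overlapped with the Geriatric ones. Mapk14 rose by 0.99 ± 0.22 from Old to Geriatric cells, a 1.99-fold difference (limma, adjusted p = 0.0107). The size was nearly the same without Geriatric 1 (0.99, adjusted p = 0.0564) or Geriatric 3 (0.99, adjusted p = 0.0738), but neither passed the test. Within slide 2 it was 0.94 (adjusted p = 0.096). The differences of Old from Young cells (−0.49 ± 0.20, adjusted p = 0.239) and of Geriatric from Young cells (0.51 ± 0.22, adjusted p = 0.21) were not past the threshold.

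The 2 Mapk14 probes did not give the same change. Their levels are not set against each other, since probes differ in brightness, but each can be followed across arrays. The probe A_55_P2179348 read −0.50, −0.37 and −0.75 in Young, −0.70, −1.27 and −1.12 in Old, −0.77 and −0.95 in Geriatric, −0.80, −0.48 and −0.80 in SAMR1 and −0.67, −0.88 and −0.93 in SAMP8 samples. By this probe the Geriatric arrays fell inside the Old range. In a fit of all 49930 probes, the Geriatric versus Old change was 0.17 ± 0.23 for it (limma, 95% interval −0.33 to 0.68, adjusted p = 0.621) and 0.99 ± 0.23 for A_55_P2046338 (adjusted p = 0.0136; 5.32% of probes were called higher). From Young to Old cells both probes gave −0.49, and from Young to Geriatric cells they gave opposite signs (−0.32 ± 0.23 and 0.51 ± 0.23), none of which passed. With the mean of both probes in place of the brighter one, the Geriatric versus Old change of Mapk14 was 0.58 (adjusted p = 0.0672) and was no longer called.

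**Figure D2:**
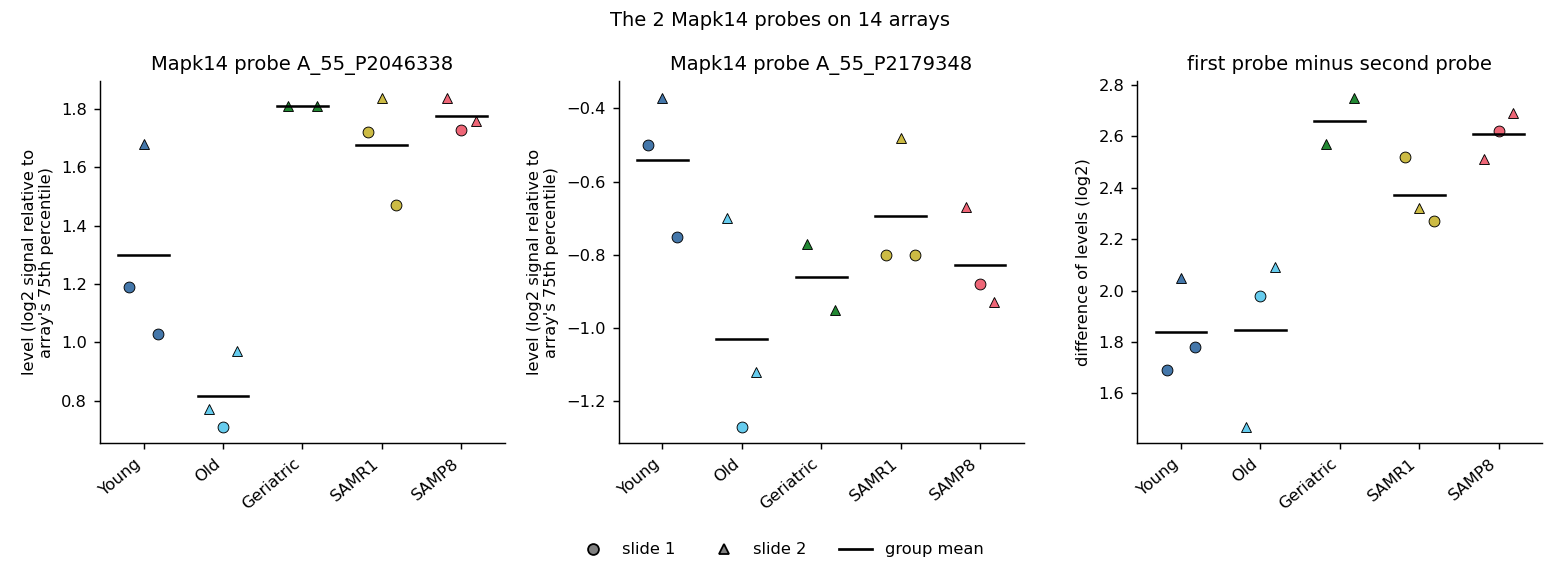
Levels of the 2 Mapk14 probes (log2 signal relative to the array's 75th percentile) and their difference on each array, by group, with circles for slide 1, triangles for slide 2 and a line at the group mean. The Geriatric arrays stand above the Old arrays for A_55_P2046338 and inside the Old range for A_55_P2179348, and the difference is 1.47 to 2.09 on Young and Old arrays and 2.27 to 2.75 on all others.

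On each array the difference between the brighter and the dimmer Mapk14 probe can be compared between groups without comparing the probes' brightness. It was 1.69, 2.05 and 1.78 in Young, 1.47, 1.98 and 2.09 in Old and 2.57 and 2.75 in Geriatric samples. It was 2.52, 2.32 and 2.27 in SAMR1 and 2.51, 2.62 and 2.69 in SAMP8 samples. All 6 Young and Old arrays lay below all 8 others, again the division that detection of Ddx3y, Uty and Kdm5d and the levels of Des, Myf5 and Spry1 make. The mean was 0.81 higher in Geriatric than in Old samples (exact two-sided permutation p = 0.2, 0.267 adjusted over 4 comparisons). With the smaller tail doubled, as here, 0.2 is the smallest p for 2 against 3 arrays, so this test could not decide. For SAMP8 against SAMR1 the mean was 0.24 higher (exact permutation p = 0.2, n = 3 against 3, 0.1 the smallest possible in the same way).

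Mapk12, which encodes p38 gamma, the isoform enriched in skeletal muscle, read −1.86, −2.93 and −2.18 in Young, −1.70, −2.25 and −2.56 in Old and −1.47 and −0.96 in Geriatric samples. It read 0.31, 0.00 and −0.30 in SAMR1 and −0.59, −0.01 and −0.46 in SAMP8 samples. The arrays thus fell into 3 tiers with no overlap, Young and Old lowest, Geriatric between and the SAM strains highest. Within the C57BL/6 mice the rise did not pass the test, at 1.11 ± 0.36 from Young to Geriatric (limma, adjusted p = 0.114) and 0.95 ± 0.36 from Old to Geriatric cells (adjusted p = 0.0854). The second of these passed with arrays centred on the median (1.24, adjusted p = 0.0302) and with quantile normalization of the same signal (1.19, adjusted p = 0.0394). SAMP8 differed from SAMR1 by −0.36 ± 0.32 (95% interval −1.07 to 0.35, adjusted p = 0.894).

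The strains were also set against the C57BL/6 groups, comparisons chosen after these values were seen, in which strain, age and, for Young and Old, sex-linked transcripts cannot be told apart. Mapk12 was 5.02-fold higher in SAMR1 than in Young cells (2.33 ± 0.32, limma, adjusted p = 0.00125) and 3.91-fold higher in SAMP8 than in Young cells (1.97 ± 0.32, adjusted p = 0.00313), where 11.9% and 13.4% of all genes were called. Against Old cells the differences were 2.17 ± 0.32 in SAMR1 and 1.81 ± 0.32 in SAMP8 (adjusted p = 0.000792 and 0.00235), where 27.9% and 28.3% of genes were called. Within a slide these 4 differences were 1.60 to 2.93 with adjusted p between 0.0526 and 0.191. Leaving out each array in turn kept all 4 calls. Against Geriatric cells, where Ddx3y, Uty and Kdm5d were also detected, Mapk12 was 1.22 ± 0.36 higher in SAMR1 and 0.86 ± 0.36 higher in SAMP8, and neither passed (adjusted p = 0.14 and 0.325). Some marker lists of other cells also read higher in the SAM strains. The mesenchymal list read −0.34 to 0.19 on SAM arrays against −1.34 to −0.59 on C57BL/6 arrays, the smooth muscle and pericyte list −0.17 to 0.63 against −1.64 to −0.61, and the endothelial list was given above. The red cell list read 0.25 to 1.32 in SAMR1, −3.11 to 2.20 in SAMP8 and −3.66 to −1.81 on C57BL/6 arrays. The Schwann list read 0.52 to 1.23 in SAMR1, −1.40 to 0.29 in SAMP8 and −2.14 to 0.13 on C57BL/6 arrays. The leukocyte list did not read higher, at −2.12 to −1.49 on SAM arrays against −1.90 to −0.42. Nor did the muscle fibre list, at −3.64 to −2.77 against −3.64 to −1.87. The activation and cell cycle list read lower, at −2.98 to −2.22 on SAM arrays against −2.07 to −0.27. The part of these lists in the Mapk12 level was not tested. On SAMP8 3, the SAM array with the lowest endothelial list (−0.27 against 1.55 to 2.80 on the other 5), Mapk12 read −0.46, inside the range of the other 2 SAMP8 arrays. That endothelial level was still above the levels of all C57BL/6 arrays (−2.69 to −0.37). A single array does not test the part of endothelial cells.

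In the same comparisons with Old cells, Mapk14 was higher by 0.86 in SAMR1 and 0.96 in SAMP8 by its brighter probe (limma, adjusted p = 0.00821 and 0.00469). By A_55_P2179348 the differences were 0.34 ± 0.21 and 0.20 ± 0.21 and neither passed (limma over all probes, adjusted p = 0.246 and 0.486). Map2k6 was higher by 0.83 and 0.66 (adjusted p = 0.0168 and 0.0446). Map2k3 was lower in SAMR1 than in Old cells (−0.83, adjusted p = 0.0194). None of the 8 members passed between either SAM strain and Geriatric cells, where 1.94% and 1.81% of genes were called.

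Mapk11, which encodes p38 beta, varied most between arrays of a group, with a pooled within-group SD of 0.95 against 0.20 for Mapk14. It read −3.30, −2.30 and −1.97 in Young, −2.73, −2.61 and −3.41 in Old, −2.85 and −2.54 in Geriatric, −1.80, −1.38 and −2.95 in SAMR1 and −1.59, −0.54 and −3.76 in SAMP8 samples. The highest and the lowest of the 14 arrays were both SAMP8 arrays, and no group stood clear of another. SAMP8 3 and SAMR1 3, the lowest SAM arrays for Mapk11, were also the lowest SAM arrays for the endothelial marker list. They read −0.27 and 1.55 for that list, against 2.43 to 2.80 on the other 4 SAM arrays. Young, Old and Geriatric arrays read lower for the list than SAMP8 3, at −2.69 to −0.37, yet higher for Mapk11, at −3.41 to −1.97. The part of endothelial cells in the Mapk11 level was not tested. The Mapk11 differences were between −0.40 and 0.22 in the 4 comparisons of the design, each with an SE of 0.70 or 0.78. Changes of more than 1 log2 unit in either direction thus lay within every 95% interval.

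Mapk13, which encodes p38 delta, read −2.72, −2.15 and −2.14 in Young, −1.46, −2.33 and −1.77 in Old, −2.17, −1.40 and −2.45 in SAMR1 and −2.12, −1.44 and −2.41 in SAMP8 samples. Geriatric cells had 1 value, −2.34 on Geriatric 3, because the spot was an outlier on Geriatric 1 and was left out of the fit. All groups overlapped except Old and Geriatric, which rested on that single array. Mapk13 had the narrowest range of group means of the 8 (0.48) and its largest difference was 0.48 ± 0.36 from Young to Old cells (limma, adjusted p = 0.552).

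Of the kinases that p38 activates, Mapkapk2 (MK2), which controls the stability of inflammatory messages, read 0.96, 1.30 and 0.45 in Young, 0.82, 0.55 and 0.75 in Old and 0.77 and 0.38 in Geriatric samples. In SAMR1 it read 0.09, 0.81 and −0.39, and in SAMP8 −1.04, −1.40 and 1.23. The C57BL/6 arrays stayed within 0.38 to 1.30, while SAMP8 arrays 1 and 2 were the lowest and SAMP8 3 was the second highest of the 14. SAMP8 and SAMR1 differed by −0.57 ± 0.57 (limma, adjusted p = 0.919), and without SAMP8 3 by −1.39 (adjusted p = 0.138). The endothelial list read 2.43 and 2.44 on SAMP8 1 and 2 and −0.27 on SAMP8 3. In SAMR1 the order was the other way, with the list at 2.67, 2.80 and 1.55, so SAMR1 3 was lowest and SAMR1 2 highest for both. The red cell list also differed between the SAMP8 arrays, at −0.36, 2.20 and −3.11. The part of either list in the Mapkapk2 level was not tested.

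Mapkapk3 (MK3), a close relative of MK2, read −2.21, −1.84 and −1.70 in Young, −2.41, −2.19 and −1.05 in Old, −1.24 and −1.22 in Geriatric, −1.73, −2.0 and −2.46 in SAMR1 and −0.40, −1.03 and −1.75 in SAMP8 samples. Its SAMP8 arrays reached higher than SAMR1 and overlapped with it at one array, SAMP8 3. SAMP8 and SAMR1 differed 2.01-fold (95% interval of the log2 difference 0.13 to 1.88), the largest size of the 8 members in that comparison, and this was not past the threshold (limma, adjusted p = 0.511).

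Read over the 8 members, only the Geriatric versus Old comparison held calls, 2 higher and 0 lower, where 19.9% of all 32873 genes were called, 5.52% higher and 14.4% lower. The members' median change there was 0.44 against −0.22 for all genes. Of the 8 members, 5 had groups that did not overlap, against 54.9% of genes. Mapk13, among these 5, had a single Geriatric value (−2.34), just below its lowest Old array (−2.33). The call of Mapk14 held with each of the other scalings, at 0.90 to 1.28, and that of Map2k6 too, at 0.82 to 1.08. These scalings moved the median of all genes to between −0.01 and 0.06 and the share of higher genes among calls from 27.7% to between 42.8% and 48.4%.

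Fitted on the Old and Geriatric arrays alone, neither member passed, at adjusted p = 0.0637 for Mapk14 and 0.149 for Map2k6. Isolation stress genes, a list of 9 immediate early and heat shock genes, had lower mean levels on the Old arrays (5.11 to 5.29) than on the Geriatric (5.46 to 5.70) and Young (5.78 to 5.95) arrays. Muscle fibre genes were higher on them, at −2.39 to −1.87 against −3.64 to −3.43 and −3.04 to −2.69. The satellite cell list read 2.58 to 2.99 on the Old and 3.23 to 3.27 on the Geriatric arrays, and the leukocyte list −1.65 to −0.42 and −1.90 to −1.71. From Old to Geriatric cells 2 of 9 stress genes, 3 of 14 satellite cell genes and 1 of 7 mesenchymal genes rose. In the same comparison 2 of 8 fibre genes, 2 of 10 leukocyte genes and 1 of 6 activation and cell cycle genes fell. Of 5 sex-linked transcripts, 3 rose and 1 fell. Over all genes tested, 5.52% were called higher and 14.4% lower, or 19.9% in either direction. None of the endothelial, pericyte, Schwann and red cell genes passed, and the part of these lists in the changes of Mapk14 and Map2k6 was not tested.

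In the other comparisons, 0 of 8 members were called where 1.44% of genes were called for Old versus Young, 4.19% for Geriatric versus Young and 0.45% for SAMP8 versus SAMR1. The lowest adjusted p of a member was 0.0601, 0.114 and 0.511 in that order (limma), and 2, 3 and 1 members had an unadjusted p under 0.05. The members' median changes were −0.08, −0.08 and 0.05 against 0.06, −0.18 and 0.01 for all genes. Groups did not overlap for 2, 4 and 0 members, against 21.5%, 44.2% and 13.1% of genes. At these group sizes a missed threshold does not show that a member was level. The Geriatric versus Young change did not differ from the SAMP8 versus SAMR1 change past the threshold for any member, where 1.73% of genes did. The largest such difference was 1.47 ± 0.49 for Mapk12 (adjusted p = 0.178). For Old versus Young the same test also called 0 members, against 0.371% of genes.

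**Figure D3:**
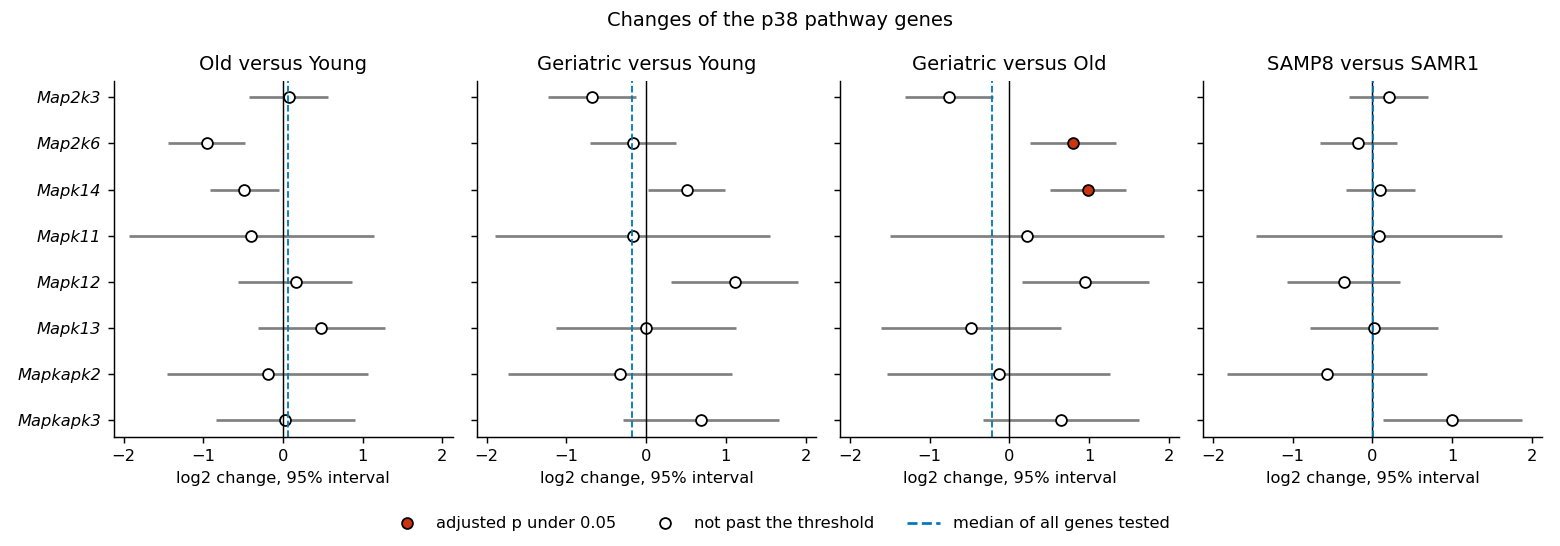
Log2 change of the 8 members (points) with 95% intervals (bars) in the 4 comparisons, filled where the adjusted p was under 0.05, with a dashed line at the median of all genes tested. Only Mapk14 (0.99) and Map2k6 (0.80) in Geriatric versus Old cells are filled, and the intervals of Mapk11 and Mapkapk2 are the widest.

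Around these members, 63 other genes of the pathway were listed by role, and 62 were tested. From Old to Geriatric cells 10 of 62 rose and 0 fell, or 16.1% called in either direction against 19.9% of all genes, with a median change of 0.09 against −0.22. The 4 of 28 upstream genes that rose were Map3k2, a kinase that activates MAP kinase kinases (0.94 ± 0.24, adjusted p = 0.0191), Cdon, a surface receptor of the myogenic lineage (1.10 ± 0.31, adjusted p = 0.0283), Bnip2, a scaffold that binds Cdon (0.71 ± 0.21, adjusted p = 0.0357), and Tab1, which binds p38 alpha (0.63 ± 0.19, adjusted p = 0.0404).

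Cdon read 3.38, 4.34 and 3.65 in Young, 3.28, 2.89 and 3.12 in Old and 4.09 and 4.31 in Geriatric samples. The Old arrays were the 3 lowest of these. Its Old versus Young difference, −0.69 ± 0.27, was not past the threshold (limma, adjusted p = 0.227).

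Of 5 other downstream kinases, 2 rose from Old to Geriatric cells, where 19.9% of all genes were called, 5.52% of them higher in Geriatric cells as a share of all genes. Mapkapk5, a kinase related to MK2, read −1.80, −1.41 and −1.81 in Young, −1.58, −2.30 and −1.74 in Old and −0.54 and −0.80 in Geriatric samples. Both Geriatric arrays lay above all 6 others, with a rise of 1.20 ± 0.27 over Old (limma, adjusted p = 0.0103) and a 2.01-fold difference from Young that missed the threshold (adjusted p = 0.0593). Rps6ka5, which phosphorylates histone H3 and CREB, rose by 0.98 ± 0.31 (limma, adjusted p = 0.0471). Its Geriatric arrays read −2.66 and −3.64, above the Old arrays (−4.45 to −3.96). The lower of them lay inside the Young range (−3.76 to −3.37).

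Of 20 substrates and targets, 4 rose from Old to Geriatric cells (limma), where 5.52% of all genes were called higher and 14.4% lower. Cdc25b, a phosphatase that drives entry into mitosis and is held back by MK2, rose by 1.28 ± 0.27 (adjusted p = 0.00861). Elavl1, which encodes the RNA-binding protein HuR, rose by 1.01 ± 0.20 (adjusted p = 0.00628). Max, the partner of Myc, rose by 0.94 ± 0.28 (adjusted p = 0.0358) and Atf1, a transcription factor of the CREB family, by 1.05 ± 0.34 (adjusted p = 0.0477). Cdc25b read −0.76, −0.61 and −0.82 in Young, −1.40, −1.88 and −1.45 in Old and −0.57 and −0.01 in Geriatric samples, so that the Old arrays lay below both other groups. The count of 10 fell to 2 without Geriatric 1, to 4 without Geriatric 3, Old 1 or Old 2, to 6 without SAMR1 1, and to 0 on the Old and Geriatric arrays alone or within slide 2.

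From Young to Geriatric cells 0 of 62 rose and 2 fell, which is 3.23% against 4.19% of all genes. Ddit3, the stress-induced transcription factor CHOP and a substrate of p38, read 3.47, 3.44 and 3.26 in Young, 2.71, 2.65 and 3.14 in Old and 2.48 and 2.17 in Geriatric samples. Hspb1, a small heat shock protein phosphorylated by MK2, read 4.63, 4.70 and 4.58 in Young, 3.56, 4.08 and 3.85 in Old and 3.63 and 3.55 in Geriatric samples. The Young arrays were the highest 3 of the C57BL/6 arrays for both genes. Ddit3 fell by 1.06 ± 0.22 (limma, adjusted p = 0.0205) and Hspb1 fell by 1.05 ± 0.24 (adjusted p = 0.0317). Without Young 1, Geriatric 1 or Geriatric 3 the count of 2 was 0, and without Young 2, Young 3 or SAMR1 1 it was 1. It was also 1 under each of the other scalings.

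None of the 9 phosphatases that act on p38 passed in any of the 4 comparisons, where 19.9% of all genes were called for Geriatric versus Old cells, 4.19% for Geriatric versus Young, 1.44% for Old versus Young and 0.45% for the SAM strains. The largest difference among them was −1.56 for Ptpn7 in Geriatric versus Old cells (limma, adjusted p = 0.091), a gene chosen after its value was seen. Dusp1 and Dusp10, which dephosphorylate p38, changed by −0.44 ± 0.23 and −0.97 ± 0.37 from Young to Geriatric cells (limma, adjusted p = 0.283 and 0.158), and Dusp10 differed by −0.89 ± 0.33 between SAMP8 and SAMR1 (adjusted p = 0.447). Map2k4, a kinase that activates both JNK and p38, and Ezh2, the Polycomb methyltransferase that p38 alpha is known to phosphorylate, differed by at most 0.27 and 0.14 in size among the C57BL/6 groups. Between SAMP8 and SAMR1 they differed by 0.08 ± 0.19 and −0.57 ± 0.27 (limma, adjusted p = 0.981 and 0.612). The SAMP8 and SAMR1 arrays did not overlap for Ezh2. No gene of the list passed for Old versus Young or for SAMP8 versus SAMR1, where 13 and 3 of 62 had an unadjusted p under 0.05.

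**Figure D4:**
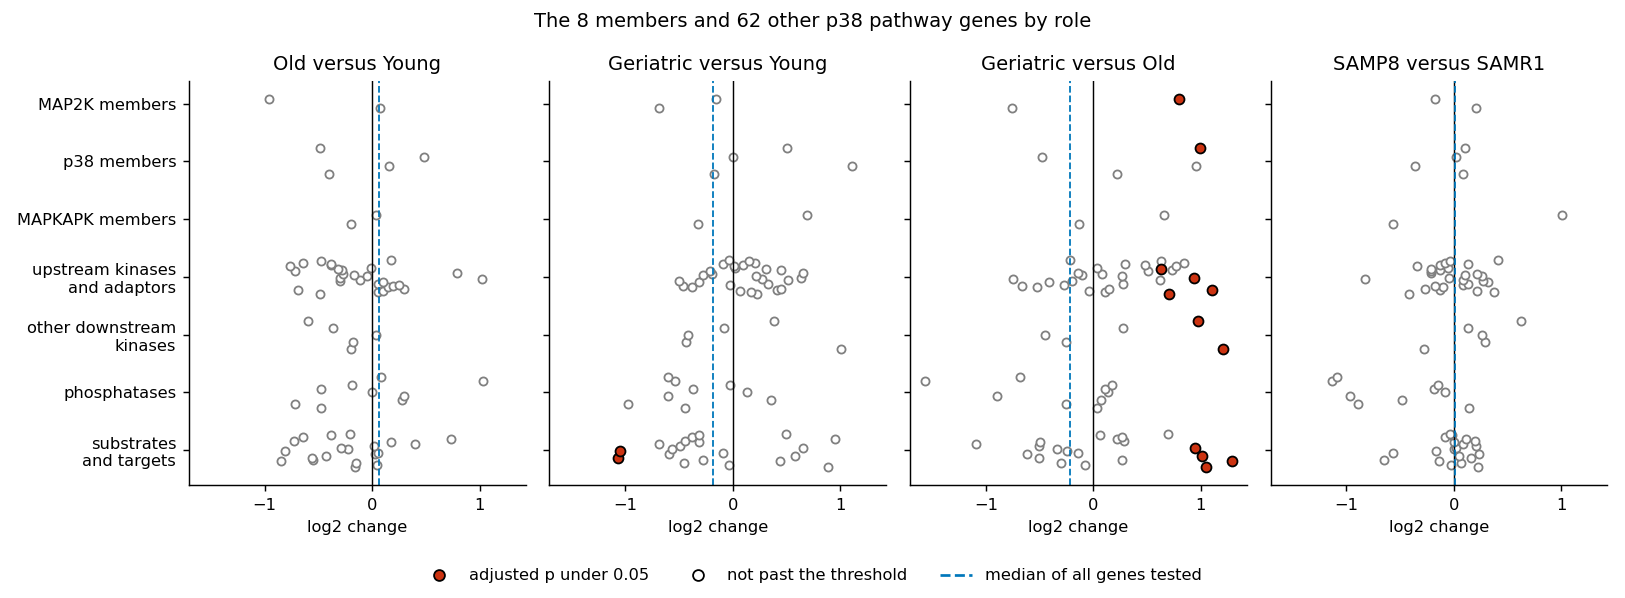
Log2 change of the 8 members and 62 other pathway genes (1 point per gene) by role in the 4 comparisons, filled where the adjusted p was under 0.05, with a dashed line at the median of all genes tested. The filled points of Geriatric versus Old all lie above 0, and those of Geriatric versus Young are Ddit3 and Hspb1.

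Likeness to Mapk14 was measured by its brighter probe alone, over the 14 arrays, with each gene centred on its own mean. Among the genes most like it were Pias3 and Sirt7, with root mean square differences of 0.13 and 0.14 among 16853 genes with symbols. Their Old means were the lowest of the 5 groups, as for Mapk14 (−0.27 and −0.03). For Mapk12 they included Cst3 and Gstt2, with differences of 0.40 and 0.41. Both had higher means in both SAM strains than in any C57BL/6 group, Cst3 at 4.43 and 4.27 against 2.65 to 3.28. The arrays share their groups, slides and scaling, so likeness is given as a description.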

How the data were processed

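Expression was measured on 14 single-colour Agilent arrays. The deposited scanner files give each spot's background-subtracted intensity, made with Agilent Feature Extraction 10.7.3.1 on probes placed on mm9, per the file headers. The authors' value table holds log2 values, made by a method that the sources used here do not state. These matched normexp correction (offset 50) with quantile normalization to within 0.0165.

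Control and outlier spots were left out, and the 75th percentile of log2 intensity was subtracted per array. Amplification of small RNA amounts can compress or skew levels. Kept probes were well above background on 2 or more arrays of some group, and a gene is its kept probe with the highest mean. The test was limma's (version 3.58.1, R 4.3.3), with lmFit and eBayes, 1 coefficient per group and two-sided p-values. It was also run on simulated data, with outcomes not given here. Those data had independent noise per gene and no slide or sex differences, so they do not show how the test fares with these. Adjusted p-values cover all 32873 genes. Intervals are 95%. The number of arrays limits the precision.

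The members, the lists and the comparisons were chosen with earlier results of these data known. Named are all 8 members, other pathway genes that passed the test (up to 5 per list and comparison), Mapkapk5, Map2k4, Dusp1, Dusp10 and Ezh2, and the 3 genes most like each of Mapk14 and Mapk12, of which some are not reported here. Promoter sequences are from RefSeq (GRCm38.p6), in which 8 of 8 members matched. Slides were read from the array identifier in the file headers. Alternatives changed the background correction, scaling, filter, probe rule, samples fitted, slide and replicate blocks, and left out each array. A sample numbered Geriatric 2 was not analysed here.

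Same replicate numbers did not pair the arrays: deviations of same-numbered arrays correlated with r between −0.255 and 0.192 (median −0.0259, 26 pairs).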

Additional observations from a re-analysis of the deposited data

How the results depend on the processing

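The 2 or 3 arrays of a group limit every count of calls, and within a slide only 2 or 3 residual degrees of freedom remain.

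Members called numbered 1 in place of 0 for Old versus Young with normexp and quantile, with the authors' log2 values, with median centring and with slide as a block (Map2k6 each time, −0.92, −0.92, −1.17 and −1.02). For Geriatric versus Old they numbered 1 with the mean of probes or the replicate block and 0 with only the groups compared or within slide 2. Leaving out each array gave 0 to 1 for Old versus Young (1 without Young 3) and 0 to 3 for Geriatric versus Old (0 without Geriatric 3), and 0 for the other comparisons and both differences between them.

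Genes called for Old versus Young were 779, 777, 43, 729, 0, 0 and 237 with normexp, the authors' values, only the groups compared, slide as a block, slide 1, slide 2 and the replicate block, against 472, and 74 to 792 without each array. On slide 1, 4901 genes had an unadjusted p under 0.05 (limma), and on slide 2, 2722. For Geriatric versus Young they were 416 (groups compared), 862 (slide block), 2 (slide 2) and 869 (replicate block) against 1377, and 615 to 1539 without each array. For Geriatric versus Old they were 2998 (groups compared) and 1554 (slide 2) against 6557, and 2213 to 7266. For SAMP8 versus SAMR1 they were 229 with normexp and with the authors' values, 47 (groups compared), 0 (slide 1, 4388 unadjusted) and 0 (slide 2, 1619 unadjusted) against 148, and 56 to 251. The lowest counts came without Old 1, Geriatric 1, Geriatric 3 and SAMR1 2 in that order.

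The members' median change moved for Old versus Young to −0.29 (median centring) and −0.47 (slide 2), for Geriatric versus Young to −0.29 (slide 2) and 0.15 (replicate block), for Geriatric versus Old to 0.72 (median centring) and 0.75 (quantile), and for SAMP8 versus SAMR1 to −0.37 (slide 2). Without each array these medians were −0.19 to −0.04, −0.17 to 0.10, 0.34 to 0.52 and −0.22 to 0.18.

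Other pathway genes called were 1 in place of 0 for Old versus Young with normexp and the authors' values (0 to 1 without each array). For Geriatric versus Young they were 1 under all 4 other scalings and the slide block, and 0 with only the groups compared, slide 2 or the replicate block, against 2 (0 to 3 without each array). For Geriatric versus Old they were 0 with only the groups compared or slide 2 and 4 with the replicate block, against 10 (2 to 12 without each array). For SAMP8 versus SAMR1 they stayed 0 without each array.

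With the replicate number as a block, Map2k6 in Geriatric versus Old cells gave 0.82 (adjusted p = 0.0754). Of 14 arrays, 5 matched best an array of their own number.

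Signs turned only for values that had not passed. For Old versus Young, Map2k3 became −0.14 (median centring), −0.01 (slide block) and −0.43 (slide 2). Mapk12 became −0.02 (normexp and authors' values), −0.06 (median), −0.07 (quantile) and −0.23 (slide 1). Mapkapk3 became −0.09 (normexp and authors' values), −0.18 (median), −0.22 (quantile), −0.02 (slide block) and −0.24 (slide 1), and Mapk11 0.02 (slide 1). For Geriatric versus Young, Mapk11 became 0.04 (slide block) and 0.15 (replicate block), and Mapk13 −0.18 (slide block and slide 2). Mapkapk2 became 0.15 for Geriatric versus Old (median). For SAMP8 versus SAMR1, Mapk14 became −0.02 (mean of probes) and −0.04 (slide 2), Mapk13 −0.07 (slide block) and −0.86 (slide 2), Map2k3 −0.15 (slide 1) and Mapk11 −1.29 (slide 2). Without each array, values that turned sign ranged, for Old versus Young, from −0.06 to 0.31 (Map2k3), −0.15 to 0.39 (Mapk12), −0.42 to 0.00 (Mapkapk2) and −0.38 to 0.30 (Mapkapk3). For Geriatric versus Young they ranged from −0.44 to 0.12 (Map2k6), −0.56 to 0.10 (Mapk11) and −0.19 to 0.10 (Mapk13), and for Geriatric versus Old from −0.02 to 0.37 (Mapk11) and −0.33 to 0.06 (Mapkapk2). For SAMP8 versus SAMR1 they ranged from 0.00 to 0.18 (Mapk14), −0.63 to 0.98 (Mapk11) and −0.25 to 0.32 (Mapk13). The cause of these shifts was not tested.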
